A study of Mus musculus with 6 samples.

Results

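The genes described here encode the proteins of the cytosolic ribosome. A gene was taken as a member when its row was marked protein coding and its name followed the pattern of a large subunit (Rpl) or small subunit (Rps) protein, or was Rplp0, Rplp1, Rplp2 or Rpsa. This gave 76 genes of the 41721 in the count table, 45 of the large subunit and 31 of the small subunit. The rule uses names and gene types alone and no measured value. RNA sequencing was performed on mouse aortic smooth muscle cells in culture, with 3 libraries labelled Pdk4fl/fl and 3 labelled Pdk4SMKO, and the contrast given throughout is Pdk4SMKO relative to Pdk4fl/fl. The study used this contrast to examine what PDK4, a mitochondrial kinase that inhibits the pyruvate dehydrogenase complex, regulates in these cells. The libraries of the genotypes also differed in other ways, given below, so the contrast is not read as the effect of Pdk4 alone.

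Both genotypes carried Pdk4 alleles with loxP sites around exons 4 to 6, and Pdk4SMKO mice also carried the tamoxifen-inducible Myh11-CreERT2 transgene, which is Y-linked and acts in cells with an active smooth muscle myosin promoter. Mice of both genotypes received tamoxifen. The cells were dissociated with collagenase from the abdominal aorta of 10-week-old mice and used between passages 4 and 8, and all 6 cultures were treated with Ang II (angiotensin II). The study calls the libraries of a genotype biological replicates, but the labels do not tie a library to a mouse, so the p-values below measure the spread between these libraries. No library without Ang II was analysed here.

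A cytosolic ribosome is built from a large subunit, which joins amino acids and releases the growing chain through an exit tunnel, and a small subunit, which binds the mRNA and reads its codons. Each ribosomal protein is needed in about the same number per ribosome, and the mRNAs that encode these proteins are among the most abundant of a growing cell. Most of them are known as TOP mRNAs: transcription starts at a C that is followed by a run of pyrimidines, the 5′ terminal oligopyrimidine tract, through which their translation responds to mTORC1. Vascular smooth muscle cells raise ribosome production when they grow in response to angiotensin II.

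The start sites of 11 genes are shown because the tract is the feature these genes are best known to share. The selection favours genes with a tract and is not a fair sample of the members. It includes Rpl11, Rpl22 and Rpl35, which moved far, and Rpl22l1 and Rps27l, which moved little. Each sequence holds 10 bases before a RefSeq transcription start and 20 bases from it, on the coding strand, with GRCm38.p6 coordinates. Rpl35a, Rpl22 and Rps27l have further listed starts that are not shown. Capitals mark a tract, searched as a C at the start base followed by 4 or more bases that are all C or T, and a sequence without capitals has no such tract at that base.
Rpl35 (chr2:39005112-39005141, minus strand): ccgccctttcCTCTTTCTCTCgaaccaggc
Rpl15 (chr14:18270967-18270996, minus strand): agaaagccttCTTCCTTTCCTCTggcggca
Rpl35a (chr16:33056472-33056501, plus strand): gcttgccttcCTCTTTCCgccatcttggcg
Rpl38 (chr11:114668570-114668599, plus strand): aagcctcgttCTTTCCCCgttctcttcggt
Rps6 (chr4:86857348-86857377, minus strand): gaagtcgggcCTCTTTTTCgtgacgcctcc
Rps10 (chr17:27635225-27635254, minus strand): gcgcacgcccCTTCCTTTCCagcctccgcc
Rps18 (chr17:33955646-33955675, minus strand): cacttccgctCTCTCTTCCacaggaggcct
Rpl11 (chr4:136053374-136053403, minus strand): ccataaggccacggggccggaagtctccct
Rpl22 (chr4:152324426-152324455, plus strand): cttctggaatgttccagctcccactgacag
Rpl22l1 (chr3:28805498-28805527, plus strand): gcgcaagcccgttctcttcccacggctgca
Rps27l (chr9:66946076-66946105, plus strand): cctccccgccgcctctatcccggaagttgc

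Of the 73 members tested, 56 had a promoter in the RefSeq table. A tract at a listed start was present in 12 of them (21.4%), against 3.01% of all 27025 genes in that table. The 12 were Rpl14, Rpl15, Rpl28, Rpl35, Rpl35a, Rpl38, Rplp2, Rps6, Rps10, Rps15a, Rps18 and Rps21. Annotated starts can lie a few bases off the true one. In a window from 5 bases before to 10 bases after a listed start, a width chosen after the data were seen, 28 of the 56 members held a tract, against 21.2% of all genes.

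The libraries held between 16526044 and 22481670 counts. Correlations of log2 CPM (counts put on one library total after TMM adjustment) were at least 0.98 within a genotype and at most 0.75 between genotypes. Pdk4, the targeted gene, had 570, 639 and 421 counts in Pdk4fl/fl and 110, 182 and 141 in Pdk4SMKO, a log2 fold change of −2.34 ± 0.22 (SE, adjusted p = 4.49e-06, edgeR's quasi-likelihood test). Xist, the RNA of the inactive X chromosome, had 3 to 5 counts in Pdk4fl/fl and 321 to 610 in Pdk4SMKO, whereas the study describes male animals throughout, so the Pdk4SMKO libraries went against that description. Among all genes tested, 26.5% were called lower and 32.8% higher, at an adjusted p under 0.05 with at least a 2-fold change. Of 8 smooth muscle markers 3 fell and 4 rose. Their summed level was 787 to 813 CPM in Pdk4fl/fl and 731 to 961 CPM in Pdk4SMKO. Within this sum Acta2 rose from a mean of 233 to 701 CPM, while Tagln fell from 253 to 52.7 and Smtn from 280 to 57.5 CPM. Myh11 itself had only 8 to 10 counts in Pdk4fl/fl and 44 to 62 in Pdk4SMKO. All 7 mesothelial markers tested rose, from a summed 74.2 to 100 CPM to 723 to 1325 CPM. Among fibroblast markers 4 of 6 rose and Dpt fell, with summed levels of 633 to 866 CPM and 5428 to 7443 CPM. Most of this sum was Col1a1, with means of 620 and 5901 CPM. Of 6 macrophage markers tested 5 rose, and 4 were at 0 in every Pdk4fl/fl library. Their summed levels were 21.4 to 38.0 CPM and 9.71 to 30.5 CPM. The Pdk4fl/fl sum was nearly all Cd68, which fell from a mean of 31.2 to 4.3 CPM. Both endothelial markers that could be tested fell, and the 6 listed summed to 15.8 to 24.2 CPM and 2.14 to 4.70 CPM. Of 6 proliferation markers 2 fell and 4 were not called, with 385 to 470 CPM and 238 to 395 CPM. The genotypes therefore differed in more than Pdk4, and the part of these differences in the values below was not tested.

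Ribosomal protein genes took a smaller share of all counts in every Pdk4SMKO library. The share was 6.51%, 7.05% and 10.4% in the Pdk4fl/fl libraries and 2.68%, 2.73% and 3.16% in the Pdk4SMKO libraries. The means were 8.0% ± 2.13 and 2.86% ± 0.264 (SD, n = 3 each), a difference of −5.14 percentage points. The ranges did not overlap, and the lowest Pdk4fl/fl share was still above the highest Pdk4SMKO share. Large subunit genes held 3.81%, 4.12% and 5.91% of counts in Pdk4fl/fl and 1.58%, 1.64% and 1.90% in Pdk4SMKO. Small subunit genes held 2.70%, 2.93% and 4.54% and then 1.10%, 1.08% and 1.26%. The plot of shares by library shows both subunits lowered together. Because these are shares of one culture's RNA, fewer cells of a type, less of this RNA per cell and more of other RNA cannot be told apart.

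**Figure D1:**
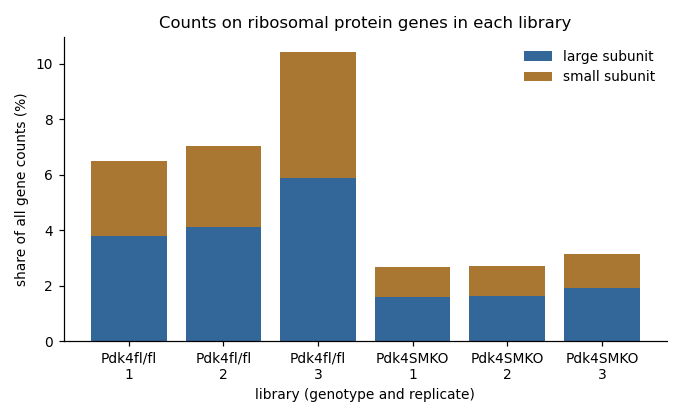
Share of all gene counts, in percent, that fell on ribosomal protein genes, with 1 bar per library and the large and small subunit stacked. The 3 Pdk4fl/fl bars reach 6.51% to 10.4% and the 3 Pdk4SMKO bars 2.68% to 3.16%.

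Pdk4fl/fl replicate 3 stood furthest apart from its group for these genes. In replicate 3 the members lay a median of 0.74 log2 units above the mean of the other Pdk4fl/fl libraries, 72 of 73 above it, while the median over all genes was 0. The excess was 0.98 for the 19 members with mRNAs under 600 bases and 0.64 for the 20 with mRNAs over 1000 bases, with Pearson's r of −0.51 against log2 mRNA length across the 68 members with a length. These members share a library and its depth, so r is given as a description. Pdk4SMKO replicate 3 departed in the same direction by less. Its members lay a median of 0.26 above the other Pdk4SMKO libraries, 67 of 73 above, while the median over all genes was −0.006. The excess was 0.35 for mRNAs under 600 bases and 0.19 for those over 1000, with r of −0.11 against length. Without Pdk4fl/fl replicate 3 the difference in share was −3.92 percentage points, and the median log2 fold change of the members was −1.79 in place of −2.10.

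The ratio of large to small subunit counts was close to constant beside the change in their sum. It was 1.41, 1.40 and 1.30 in Pdk4fl/fl and 1.44, 1.52 and 1.52 in Pdk4SMKO, a difference of 0.12 on the log2 scale. The values of the genotypes did not overlap, so the small subunit was lowered slightly more. Per kb of mRNA the log2 ratios were 0.38, 0.37 and 0.30 in Pdk4fl/fl and 0.37, 0.45 and 0.47 in Pdk4SMKO. These did overlap, with a difference of 0.08. The per kb sums leave out Rpl7, Rpl19, Rpl22l1, Rpl26 and Rps24, which had no mRNA length, so the 2 ratios cover different sets of genes.

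Gene by gene, 68 of the 73 members tested were lower in Pdk4SMKO and 1 was higher, at an adjusted p under 0.05 with at least a 2-fold change (edgeR's quasi-likelihood test). Among all 14085 genes tested, 26.5% were called lower and 32.8% higher. The large subunit had 38 of 42 genes lower (90.5%) and the small subunit 30 of 31 (96.8%). In 69 members every Pdk4SMKO library lay below every Pdk4fl/fl library, which was so for 38.3% of all genes. An exact permutation test of a single gene with 3 against 3 libraries cannot give a p below 0.1, so calls rest on the fit across all genes.

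The size of the change was also alike from gene to gene. The median log2 fold change was −2.10, that is 4.29-fold lower, with quartiles of the members at −2.28 and −1.83, whereas all genes tested had a median of 0.12 and quartiles of −1.10 and 1.5. The large subunit had a median of −1.99 (3.96-fold) and an SD of 0.80, and the small subunit −2.19 (4.55-fold) and an SD of 0.43. Of the 73 members, 58 lay within 0.5 log2 units of the members' median. Scaling by library size alone, without TMM factors, moved the median of all genes up by 0.61, and the median of the members was then −1.48, with 63 called lower and 1 higher. Length of the mRNA did not sort the members by fold change (r = −0.03, n = 68). The median was −2.14 with a tract at the annotated start base (n = 12) and −2.15 without (n = 44). Annotated starts can be off, so the second group may hold genes with a tract. This comparison therefore cannot decide whether a tract sorts the members. The 3 members on the X chromosome had a median of −1.92 and the 70 on autosomes −2.10.

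**Figure D2:**
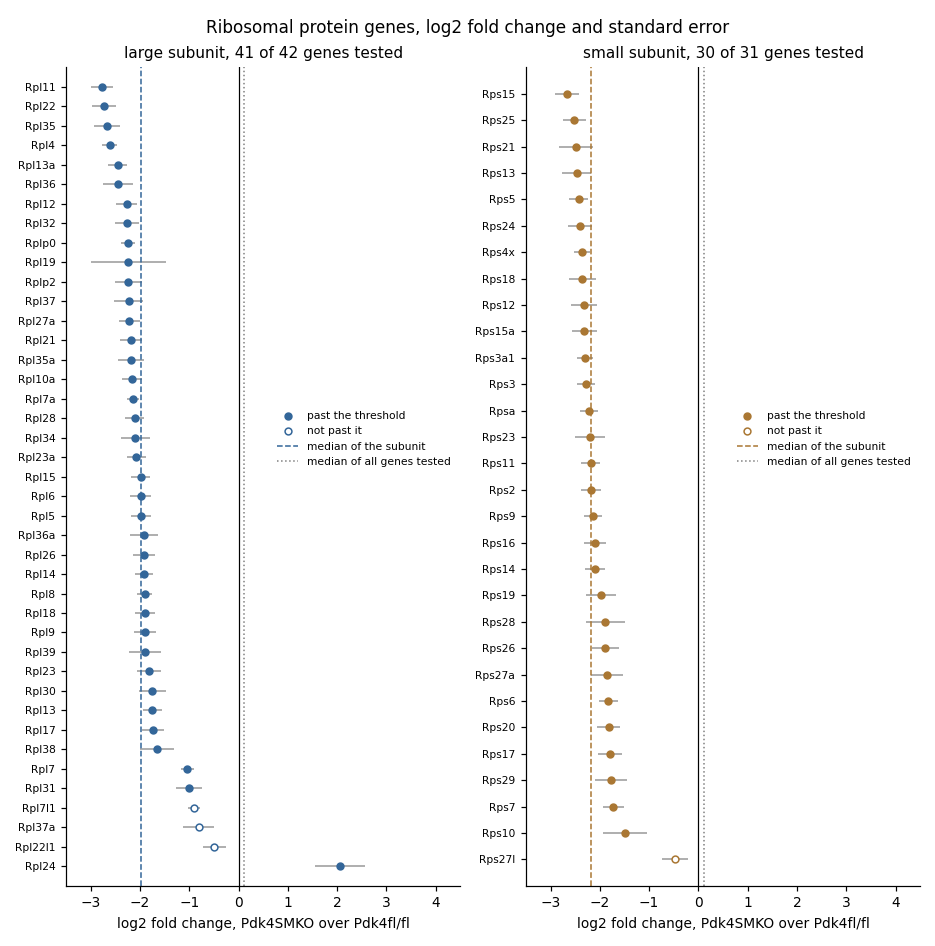
Log2 fold change (x axis, Pdk4SMKO over Pdk4fl/fl) of 71 of the 73 members tested, with the large subunit on the left and the small subunit on the right. Points are edgeR estimates, bars are standard errors, filled points passed an adjusted p of 0.05 and a 2-fold change, dashed lines are the subunit medians (−1.99 and −2.19) and dotted lines the median of all genes tested (0.12). Rpl24 is the member right of 0, on very few counts.

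The large subunit genes that fell furthest were Rpl11, Rpl22 and Rpl35. Rpl11, which with Rpl5 and 5S rRNA forms the particle that also binds MDM2, was at 1100, 1266 and 1966 CPM in Pdk4fl/fl and 187, 204 and 244 CPM in Pdk4SMKO. The groups lay far apart, and its log2 fold change of −2.77 ± 0.22 was the most negative of the subunit (SE, adjusted p = 1.53e-06, edgeR's quasi-likelihood test). Rpl5 was lowered less, with 1449 ± 387 CPM against 368 ± 53.7 CPM and a log2 fold change of −1.98 ± 0.20. Rpl22, an RNA-binding protein at the outer face of the subunit, followed Rpl11 at −2.72 ± 0.24, from 843 ± 301 to 128 ± 21.7 CPM.

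The exit tunnel and its opening are lined by proteins whose 8 genes on the list were all lower, with a median of −2.0. This stands beside 68 of the 73 members and 26.5% of all genes. Among the 8, Rpl19 rests on few counts. It lost its call without Pdk4fl/fl replicate 3 (−0.50) and with library size alone. Rpl4, whose loop reaches into the tunnel, had 5380, 5665 and 6886 CPM in Pdk4fl/fl and 961, 937 and 1025 CPM in Pdk4SMKO, a log2 fold change of −2.62 ± 0.15. Rpl35, at the tunnel exit, had 363, 416 and 776 CPM and then 76.7, 75.8 and 92.4 CPM, a log2 fold change of −2.67 ± 0.27. Neither gene overlapped between genotypes, and Rpl35 was 6.35-fold lower. Rpl23a, Rpl26, Rpl39 and Rpl17, which surround the same opening, had log2 fold changes of −2.07, −1.92, −1.90 and −1.74. Rpl31 was the exception at that site, at 529, 618 and 1152 CPM against 322, 376 and 450 CPM, a log2 fold change of −1.0 ± 0.27 (adjusted p = 0.00566, edgeR's quasi-likelihood test). It lay at the fold limit and did not pass it without Pdk4fl/fl replicate 3 (−0.60).

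The stalk recruits the translation factors that drive each round of elongation. Its base Rplp0 was the most abundant member by CPM, at 6922, 7657 and 8358 CPM in Pdk4fl/fl and 1601, 1669 and 1577 CPM in Pdk4SMKO. The log2 fold change was −2.24 ± 0.14 (adjusted p = 2.33e-07, edgeR's quasi-likelihood test), close to those of its partners Rplp2 (−2.24) and Rpl12 (−2.27). These 3 genes, at levels from 843 to 7646 CPM in Pdk4fl/fl, had log2 fold changes that differed by less than their standard errors. Rpl8, near the peptidyl transferase centre, went from 2957 ± 506 to 790 ± 50.3 CPM, a log2 fold change of −1.90 ± 0.16. Levels per kb of mRNA could be ranked for the 68 tested members with an mRNA length, which leaves out Rps24 and Rpl26 among others. Of these 68, Rplp0 (5630 and 1190 CPM per kb), Rps4x (4137 and 805) and Rpl32 (3955 and 824) had the highest mean levels over all libraries.

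In the small subunit, the genes of the mRNA path fell together. Rps2, Rps3 and Rps9, at the entry of the mRNA channel, had log2 fold changes of −2.19, −2.28 and −2.15. Rps3, which also works in DNA repair, had 1714, 1936 and 2686 CPM in Pdk4fl/fl and 438, 428 and 437 CPM in Pdk4SMKO, with no overlap. At the exit of the channel, Rpsa was at −2.22, Rps14 at −2.09, Rps28 at −1.89 and Rps26 at −1.89. Rps28 was the most uneven of these, with 130 CPM in Pdk4SMKO replicate 1 against 54.2 and 64.5 CPM in the other two. Rps23, at the decoding centre, had a log2 fold change of −2.20 ± 0.30.

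Rps15, also at the decoding centre, was among the small subunit genes that fell furthest, at −2.67 ± 0.25, although its row held only 686 to 1368 counts in Pdk4fl/fl. Rps25, which viral internal ribosome entry sites depend on, had 1092, 1212 and 2059 CPM in Pdk4fl/fl and 259, 233 and 272 CPM in Pdk4SMKO. The groups did not overlap, and its log2 fold change was −2.52 ± 0.23 (adjusted p = 3.82e-06, edgeR's quasi-likelihood test). Rps6, the classical substrate of the S6 kinases, had 547, 544 and 863 CPM and then 200, 157 and 194 CPM, a log2 fold change of −1.83 ± 0.20. Rps19, the gene most often mutated in Diamond-Blackfan anaemia, was at −1.98 ± 0.31, and Rps27a, made as a fusion with ubiquitin, at −1.85 ± 0.32. At the other end stood Rps7 at −1.73 ± 0.21 and Rps10 at −1.49 ± 0.45. Rps10 had 422, 532 and 1570 CPM in Pdk4fl/fl against 193, 378 and 330 CPM, and without Pdk4fl/fl replicate 3 its log2 fold change was −0.68.

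**Figure D3:**
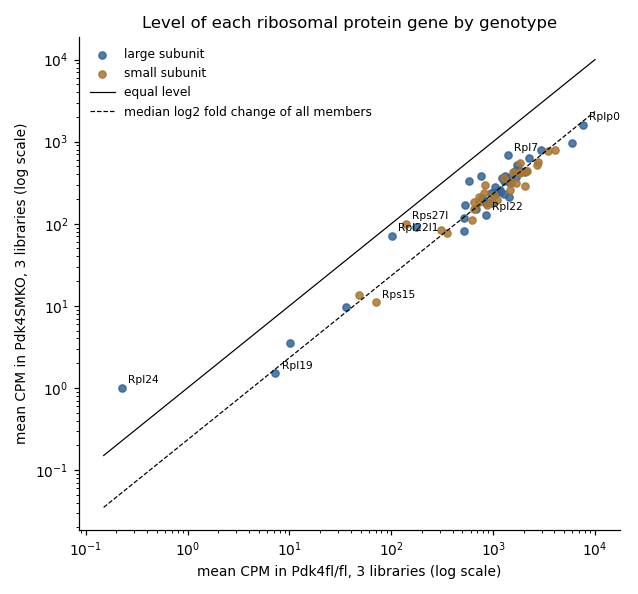
Mean CPM of each tested member in Pdk4SMKO (y axis) against Pdk4fl/fl (x axis), 3 libraries each, both on log scales, coloured by subunit. The points run along the dashed line of the members' median log2 fold change (−2.10) rather than the solid line of equal level, from a few CPM to Rplp0 at 7646 and 1616 CPM, and Rpl24 lies above both lines.

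Members with a high level in one genotype mostly had a high level in the other. Across the 68 members with an mRNA length, Pearson's r between their log2 mean CPM in Pdk4fl/fl and in Pdk4SMKO was 0.96. This leaves out Rpl7, Rpl19, Rpl22l1, Rpl26 and Rps24 and takes in rows of very few counts such as Rpl24, which widen the range. The points share libraries, and r is given as a description and is not a measure of rank.

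The members not called lower numbered 5, and 3 of these are paralogs of a standard ribosomal protein. Rpl22l1, the paralog of Rpl22, had 73.1, 83.8 and 146 CPM in Pdk4fl/fl and 69.0, 62.9 and 83.7 CPM in Pdk4SMKO. The genotypes overlapped, and the log2 fold change was −0.49 ± 0.24 (adjusted p = 0.082, edgeR's quasi-likelihood test). Rps27l, the paralog of Rps27 and a known p53 target, had 94.8, 108 and 215 CPM against 108, 86.9 and 105 CPM, which also overlapped, at −0.47 ± 0.27 (adjusted p = 0.131, edgeR's quasi-likelihood test). Rpl7l1, the paralog of Rpl7 with a role in assembly of the large subunit, had 157, 183 and 179 CPM against 84.3, 88.7 and 104 CPM. It did not overlap and passed the p but not the fold limit, at −0.91 ± 0.13. Rpl37a was the only one of these 4 genes that is a standard component, at 360, 440 and 936 CPM against 284, 308 and 396 CPM, with a log2 fold change of −0.81 ± 0.31 (adjusted p = 0.0336, edgeR's quasi-likelihood test). The remaining one was Rpl24, described with the rows of few counts. With library size alone, which moved the median of all genes from 0.12 to 0.73, the log2 fold changes of Rpl22l1 and Rps27l were 0.13 and 0.15, so both genes lay below that median under either scaling.

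Beside their partners, 3 of 4 paralogs made up a larger part of the pair in every Pdk4SMKO library. A rise beside ribosomal protein genes was common. Relative to the summed counts of the members, 78.8% of all genes were higher at an adjusted p under 0.05 at any fold (edgeR's quasi-likelihood test). Rpl22l1 held 11.6%, 11.8% and 12.3% of the Rpl22 count in Pdk4fl/fl and 63.6%, 50.8% and 55.4% in Pdk4SMKO, a difference of 2.24 on the log2 scale. Rps27l held 29.1%, 29.9% and 25.4% of the count of Rps27rt, the row described as RPS27, and then 153%, 68.0% and 69.7%. Rpl36al held 10.7%, 14.0% and 13.7% of the Rpl36a count and then 21.6%, 20.3% and 19.2%. None of these 3 ratios overlapped between genotypes, and each had the smallest p the exact two-sided permutation test can give with 3 against 3 (p = 0.1, 0.133 adjusted over the 4 pairs compared). Rpl7l1 and Rpl7 moved in step, with 12.4%, 13.8% and 11.2% against 13.5%, 12.4% and 14.8% (exact permutation p = 0.5). Rpl7 itself had 1265, 1322 and 1596 CPM against 625, 713 and 698 CPM, a log2 fold change of −1.04 ± 0.14 (adjusted p = 4.93e-05, edgeR's quasi-likelihood test), and lay below the fold limit without Pdk4fl/fl replicate 3 (−0.95). The tissue-restricted paralogs Rpl3l, Rpl10l and Rpl39l were not tested for lack of reads. Rpl10l had no count in any library, Rpl3l 0 to 3 counts in Pdk4fl/fl and none in Pdk4SMKO, and Rpl39l 1 to 9 counts and then 0 or 1.

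**Figure D4:**
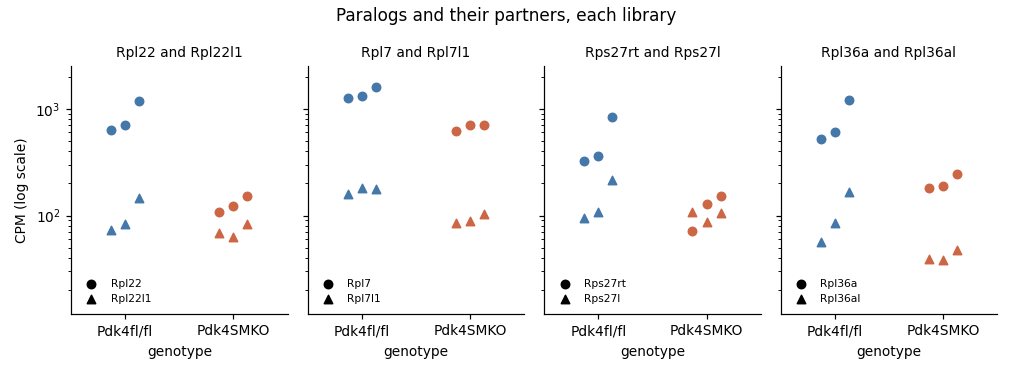
CPM on a log scale in each library for 4 ribosomal protein genes or rows (circles) and their paralogs (triangles), with Pdk4fl/fl on the left and Pdk4SMKO on the right of each panel. Rpl22 drops from 843 to 128 mean CPM while Rpl22l1 goes from 101 to 71.9, and Rpl7 and Rpl7l1 drop side by side.

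When libraries were scaled to their summed counts on the members, so that a gene is compared with its fellow ribosomal protein genes, 12 members differed from the rest at an adjusted p under 0.05 at any fold. The 7 that lay higher were Rpl24 (4.08), Rps27l (1.68), Rpl22l1 (1.63), Rpl37a (1.34), Rpl31 (1.13), Rpl7l1 (1.13) and Rpl7 (1.02), on the log2 scale. Among the 5 that lay lower were Rpl11 (−0.67), Rpl22 (−0.61), Rps15 (−0.58) and Rpl4 (−0.56). On this scale 78.8% of all genes were higher and 6.6% lower, so being higher is common there, and 61 of the 73 members did not pass. This scaling was added after seeing the data.

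The ribosome has 80 proteins in the list used here, and 70 had a row that fitted the name rule. For the other 10, rows elsewhere in the table were looked up by the protein they are described as. Only 1 row was taken for a protein, also where more rows had counts, as for RPL29 with 29. Of these 10 proteins, 9 had a tested row, and all 9 rows were lower, beside 26.5% of all genes. Among them were Rack1 (−1.90), the scaffold protein of the small subunit head, and rows described as RPL3 (−1.87), RPL10L (−2.15), RPL27 (−1.67), RPL29 (−1.73), RPLP1 (−2.05), RPS27 (−2.13) and FAU (−2.07). Rack1 had 3397, 3784 and 4548 CPM in Pdk4fl/fl and 951, 1093 and 1090 CPM in Pdk4SMKO. The row described as RPL10L is named Rpl10-ps3 and stood for Rpl10 here, and the RPL29 row is a processed pseudogene. Rpl41 had no row with counts. Rpl36al, a paralog of Rpl36a outside the name rule, had a log2 fold change of −1.30 ± 0.32.

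Under 300 counts in every library were found for 6 of the 76 members, and for some of them the reads lay on near-identical rows. Rpl24, part of a bridge between the subunits, had 3, 6 and 2 counts in Pdk4fl/fl and 22, 27 and 14 in Pdk4SMKO, which gave the higher call (log2 fold change 2.06 ± 0.51, adjusted p = 0.00355, edgeR's quasi-likelihood test). Rows described as the same protein but unnamed or marked as pseudogenes held 299, 503 and 722 counts and then 183, 130 and 263. With these added, Rpl24 was lower, at −1.77 ± 0.35. Rpl19 had 29, 42 and 233 counts against 36, 27 and 33, and its log2 fold change of −2.24 ± 0.76 was −0.50 without Pdk4fl/fl replicate 3. Its other rows held 2292, 3220 and 4246 counts and then 1011, 918 and 1133, which brought it to −2.18 ± 0.27. With other rows added to every member, 69 of the 73 were lower in the same edgeR test, with a median of −2.12. The values of Rpl19 and Rpl24 on their own rows are therefore uncertain.

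Genes whose mRNAs or products work with the ribosome were counted in the same fit, in which 26.5% of all genes were called lower and 32.8% higher. Of 16 other TOP mRNAs tested, which encode elongation and initiation factors and related proteins, 15 were lower, with a median of −1.69. Npm1, a nucleolar chaperone, led them at −2.98 ± 0.18, from 3790 ± 777 to 481 ± 50.1 CPM, and Naca, which meets nascent chains at the tunnel exit, followed at −2.27 ± 0.18. Eif3l, a subunit of initiation factor eIF3, was the gene not called, at −0.67 ± 0.12. With library size alone 10 of these 16 were lower. Under that scaling 2390 of all 14085 genes were lower and 6184 higher, which is the background for the library-size counts below.

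Dedicated chaperones, which escort single ribosomal proteins, had 5 of 6 genes lower, beside 26.5% of all genes. With library size alone the counts were 3 lower and 1 higher. Pdcd2l, a partner of Rps2, had a log2 fold change of −3.49 ± 0.17, and Tsr2, which carries Rps26, −2.53 ± 0.18. Ribosome biogenesis was mixed, with 8 of 18 genes lower, beside 26.5% of all genes, 10 not called and a median of −0.79. Nolc1 (−3.68 ± 0.16) and Fbl, the methyltransferase of rRNA (−2.87 ± 0.16), were lowest, whereas Rrn3, a polymerase I initiation factor, was at 0.98 ± 0.14, below the fold limit. With library size alone 6 of the 18 were lower and 4 higher.

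Among 13 mTORC1 and TOP regulators, 5 were lower and 2 higher, and 4 lower and 5 higher with library size alone, beside 26.5% lower and 32.8% higher among all genes. Tsc1, an inhibitor of mTORC1, fell from 912 ± 89.8 to 40.0 ± 0.406 CPM (−4.51 ± 0.14), Mtor rose from 22.2 ± 3.02 to 50.8 ± 4.46 CPM (1.19 ± 0.15), and Eif4ebp2, a repressor of cap-dependent translation, rose at 1.53 ± 0.14. The mitochondrial ribosome, which is made of other proteins, gave 22 lower and 7 higher of 73 genes tested, a share of lower genes near the 26.5% of all genes, with a median of −0.45. It ranged from Mrps6 at −3.00 ± 0.23 to Mrpl44 at 2.81 ± 0.19. With library size alone, which moved all genes up, the split was 5 lower and 13 higher. Of 13 proteasome core genes 6 were lower and 7 not called, with a median of −0.95, and 1 was lower with library size alone.

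**Figure D5:**
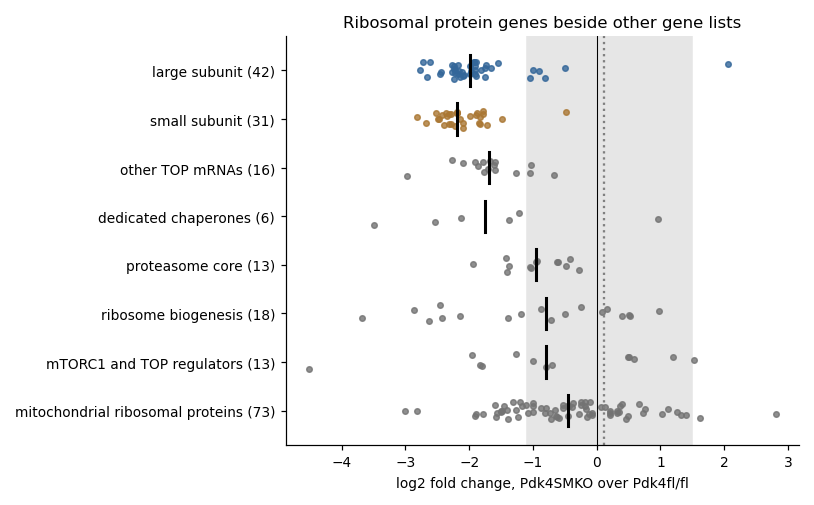
Log2 fold change (x axis) of the tested genes of each list, 1 point per gene, with the number tested in brackets and a black bar at each median. The grey band spans the quartiles of all genes tested (−1.10 to 1.5) and the dotted line their median (0.12), and the medians run from −2.19 in the small subunit to −0.45 in the mitochondrial ribosome.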

How the data were processed

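The authors deposited whole-number read counts per gene for 6 libraries, with C57BL/6NJ gene identifiers. The labels name build GRCm39, and the aligner, counter and use of strand are not given in the sources used here, so reads shared by a gene and its pseudogene copies may lie on either row. The labels name a SMARTER library kit and the methods of the study another kit, with 150-base paired reads. Totals of 16526044 to 22481670 counts make a count of 3, the floor used here, 0.133 to 0.182 CPM, and this covers counting error only.

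Groups came from the genotype labels. Counts were fitted with edgeR 4.0.16 in R 4.3.3 (TMM factors, filterByExpr, quasi-likelihood test) over 14085 genes with Benjamini-Hochberg adjustment, and a call needed an adjusted p under 0.05 together with at least a 2-fold change. The test was checked on simulated data in which far fewer genes changed than here, so the check does not cover changes as widespread as these. CPM are TMM-scaled, errors are SE for fold changes and SD over 3 libraries for levels. mRNA lengths were those of principal GENCODE M21 transcripts. Start sequences were taken from RefSeq promoters (GRCm38.p6).

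Named genes were, per subunit, the 3 lowest and 3 highest fold changes, the 3 highest levels per kb, every member not called lower, and members with the roles given, and a few that met this rule are not reported here. Up to 4 genes of each other list were named. The members and lists were chosen with earlier results of these data known. Alternatives were DESeq2 1.42.0, other scaling, filters and thresholds, a block for the replicate number, dropping each library in turn, and 2 settings added after seeing the data.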

Additional observations from a re-analysis of the deposited data

How the results depend on the processing

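Across 17 settings, 32 of 40 named members kept their direction and side of the threshold. Members called lower numbered 63 (library size alone) to 70 (no fold limit), against 68, and with rows of the same protein added 69 of the same 73 members were lower. The single higher call, Rpl24, was absent (count 0) with at least 10 counts in every library and with rows of the same protein added, where it reversed to −1.77. Library size alone moved the medians to −1.48 for all members, −1.37 for the large and −1.57 for the small subunit, and put Rpl22l1 at 0.13 and Rps27l at 0.15. It moved the median of all genes up by 0.61, and the calls over all genes from 3733 lower and 4616 higher to 2390 and 6184. Leaving out 1 library gave 64 to 69 members lower, medians of −2.24 to −1.79 (large −2.14 to −1.75, small −2.34 to −1.92), share differences of −5.89 to −3.92 percentage points and subunit ratio differences of 0.086 to 0.15. Rpl7, Rpl31, Rpl19 and Rps10 lost the call without Pdk4fl/fl replicate 3 (−0.95, −0.60, −0.50 and −0.68) as did Rpl7 and Rpl31 without Pdk4SMKO replicate 1 (−0.97 and −0.88), and Rpl31 (−0.98) and Rpl19 (adjusted p = 0.0501, edgeR's quasi-likelihood test) without Pdk4SMKO replicate 2. Rpl37a passed without Pdk4fl/fl replicate 1 (−1.05). Deviations of same-numbered libraries from the mean of their genotype correlated at 0.04, 0.06 and 0.18 over the genes tested. The Pdk4SMKO library that correlated best with Pdk4fl/fl replicate 1 was replicate 2. For Pdk4fl/fl replicates 2 and 3 it was the same-numbered library. The members' share of counts rose with the replicate number in both genotypes. Whether same-numbered libraries share a batch was not tested. With the replicate block 67 members were lower, and Rpl31 fell below the fold limit at −0.93. Except where a value above shows it, the cause was not tested. Low counts limit Rpl19 and Rpl24.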

Other observations

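Rows of the table that are marked as pseudogenes, carry no gene name or are named with a Gm number or a -ps suffix, but are described as the protein of a member, held 5.87% to 6.77% of the counts on members and such rows together, with the Rpl10-ps3 row included. Of 98 such rows tested, 83 were lower (edgeR's quasi-likelihood test), beside 26.5% of all genes tested. The rows named next were chosen after their values were seen, for the size of their change. A processed pseudogene row described as RPS24 (C57BL/6NJ coordinates, chromosome 16, 44975213 to 44975614) had 1207, 1575 and 1627 counts in Pdk4fl/fl and 7, 2 and 5 in Pdk4SMKO. One described as RPS25 (chromosome 4, 130254974 to 130255295) had 565, 751 and 670 counts and then 2, 3 and 2. Their namesakes Rps24 and Rps25 had log2 fold changes of −2.40 and −2.52, against −8.73 ± 0.31 and −8.52 ± 0.28 for these rows. In 5 rows the mean was at least 50 counts in Pdk4fl/fl and every Pdk4SMKO library held at most 10. The reverse was found in 0 rows. How common such rows are among all genes is not given here, so the 5 are a description only.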
